A study of Homo sapiens with 6 samples.

Results

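The genes that copy the genome were examined in lines made from the Ewing sarcoma cell line A673. These carried an empty vector or an inducible LOX-PP, the propeptide that is cut from lysyl oxidase (LOX) outside the cell. The set held 51 genes, from the proteins that mark an origin to the proteins that work at the moving fork, out of 20503 genes that could be named on the array. A probe counted for a gene when its transcript accession belonged to that gene, and where a gene had several probes the one with the highest mean signal over the arrays was used. All 51 genes were found, all 51 probes were well above background on each of the 6 arrays, and all 51 were tested.

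The 3 control arrays held RNA of A673/TR/empty cells, and the other 3 held RNA of A673/TR/LOX-PP cells after 72 h of doxycycline. A673 comes from a bone and soft tissue tumour driven by the EWS/FLI1 fusion, and TR is the tetracycline repressor, which both lines carry and which doxycycline releases from the promoter of the inserted cDNA. Both lines were made with a lentiviral vector, that of the control cells having no LOX cDNA, and the arrays came from 3 separate experiments. The clone or pool used for the arrays is not given in the sources used here. Each group was a separate line, and the 6 arrays held no A673/TR/LOX-PP cells without doxycycline. The line and the induced propeptide therefore cannot be told apart. The labels give 1 µM doxycycline for all 6 samples, although the source names give it for LOX-PP only, and whether the control cells received it was not settled.

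Between 53.8% and 72.8% of the gene probes were well above background on an array. Replicate 1 of LOX-PP was alone on slide 2 and scan 2, while the remaining 5 were together on slide 1 and scan 1. The only probe of LOX read -0.09, 0.36 and 0.11 on the controls and -0.12, -0.68 and -1.29 on the LOX-PP arrays (log2 over the 75th percentile of the array). It was thus not higher where the propeptide was to be induced, but the files do not say whether the probe lies inside the propeptide cDNA, so it could not check the labels. LOX-PP arrays below means the arrays labelled A673/TR/LOX-PP. All 9 Ewing sarcoma markers looked at, among them CD99 and NR0B1, were well above background on 6 arrays, and HBB of red blood cells and CDH1 and KRT5 of epithelia were not well above background on any.

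A cell licenses its origins in G1 phase, when the origin recognition complex, CDC6 and CDT1 load the MCM2-7 helicase onto DNA as an inactive ring. In S phase the kinase CDC7 with its partner DBF4, together with cyclin-dependent kinase, turns that ring into a working helicase by joining CDC45 and the GINS complex to it. Polymerase alpha with primase then starts each strand, polymerases delta and epsilon extend it, the PCNA ring holds them on DNA, and FEN1, DNA2 and LIG1 finish the lagging strand. Many of these genes are transcribed at the G1/S border under E2F factors, which is why they are widely used to follow proliferation.

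In the LOX-PP arrays most of the 51 genes read slightly lower, and no single gene passed the test. The difference, LOX-PP mean minus control mean on the log2 scale, was below 0 for 42 genes (82.4%) and above 0 for 9. Its median was -0.23, against 0.03 over the 16566 genes tested with 1 probe each, of which 47.5% were below 0. No gene of the 51 had an adjusted p under 0.05 in limma with Benjamini-Hochberg adjustment over all 32609 tested probes, whereas 5.67% of those probes and 7.08% of the 16566 genes did. Of the 3052 genes with a signal between the lower and upper quartile of the set, described below, 2.1% did. With an intensity trend in limma 3 genes passed, POLE4, RFC3 and POLD3, and 2777 probes in place of 1848. At an unadjusted p under 0.05 the count was 5 of 51 (9.8%), all lower, and the share of all genes that were lower at that level was 12.1%, so single genes of this set did not stand out more often than other genes did. The 95% confidence interval of a gene's difference reached 0.54 to either side in the median gene, from 0.46 to 1.07, and a change of the size of the median was therefore not detectable for one gene with 3 arrays a group. In bulk RNA, fewer cells in S phase and less of these transcripts in each cell cannot be told apart.

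In 16 of the 51 genes (31.4%) all 3 LOX-PP arrays lay below all 3 control arrays, and in none did they lie above. Among the tested genes with a value on every array, 18.2% were separated downwards and 15.5% upwards. The 16 were ORC1, CDT1, MCM6, CDC45, GINS4, POLA2, PRIM1, POLD1, POLD3, POLE2, POLE3, POLE4, RFC3, RFC5, RPA1 and DNA2, and the groups overlapped in the other 35. They came from 10 of the 12 functional groups below, so that no single complex held them.

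Signal level moved with this result. Most of the 51 probes were bright, the dimmest being that of CDC6 with a mean log2 signal of 10.4. In 3052 tested genes the mean log2 signal lay between the lower and the upper quartile of the 51 (14.9 and 17.0). This is the signal range meant throughout. Members outside it, such as CDC6 and MCM7, were still counted among the 51 set beside it. These 3052 had a median difference of -0.13, with 63.6% of them below 0. In that range 25.8% of the genes were separated downwards and 9.38% upwards, compared with 31.4% and 0% of the 51. Of the 51 replication genes, 30 (58.8%) lay below the median difference of that range. After quantile normalization the median of the 51 was -0.17 with 40 genes below 0, and that of the signal range was -0.04 with 55.0% below 0. The part of signal level in the lower values of the replication genes was not tested.

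**Figure D1:**
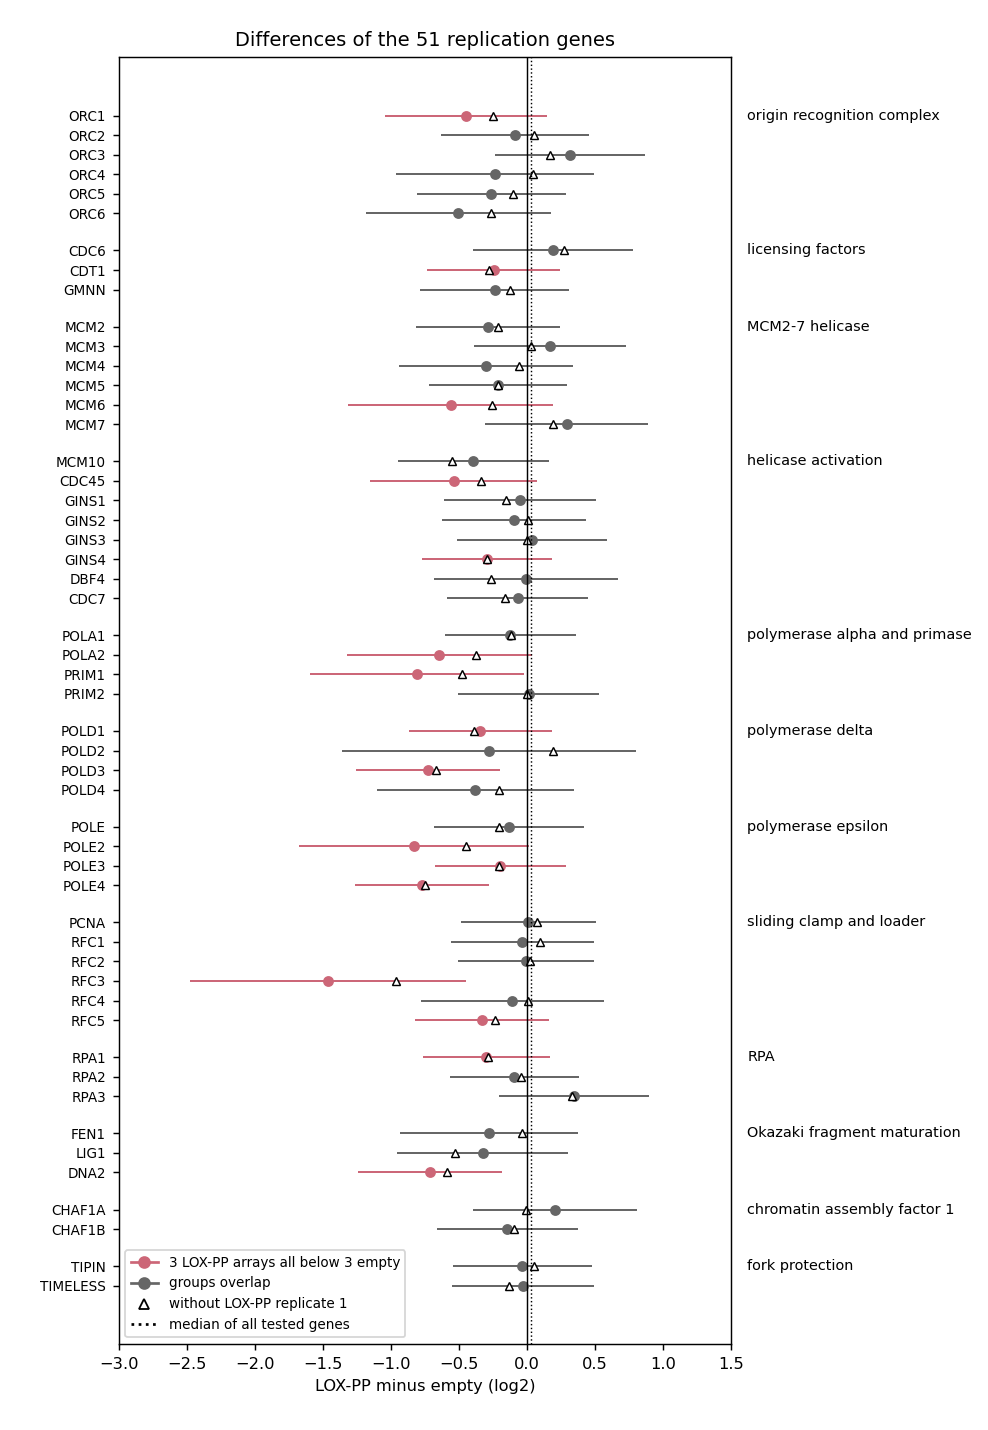
Difference between LOX-PP and control arrays for each of the 51 genes (log2, points), with the 95% confidence interval of limma as a line, ordered by function. Red marks the 16 genes whose arrays did not overlap, triangles give the value without replicate 1 of LOX-PP, and the dotted line is the median of all tested genes (0.03). Most points lie left of 0, few intervals exclude it, and RFC3 lies farthest left at -1.46.

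The arrays did not contribute equally. Set against the mean of the 3 control arrays gene by gene, the 51 genes had a median deviation of -0.29 on replicate 1 of LOX-PP, -0.23 on replicate 2 and -0.02 on replicate 3, while the control arrays gave -0.04, 0.07 and -0.02. The median of replicate 3 of LOX-PP therefore lay within the range of the control medians. Its genes spread from -0.98 to 0.65, compared with -0.33 to 0.35 on control replicate 3, the widest control. The controls themselves form the mean they were set against. On replicate 3 of LOX-PP 29 genes were below the control mean, compared with 37 on replicate 1 and 46 on replicate 2. Over all tested genes the same medians were -0.12, 0.03 and 0.07 on the LOX-PP arrays, and over the genes in the same signal range they were -0.17, -0.15 and -0.04, with 68.4% of that range below the control mean on replicate 2. On replicate 1 the 51 genes spread from -2.46 to 0.62, and it was the lowest of the 6 arrays in 25 of them (49.0%), compared with 32.7% of all genes and 36.9% of the genes in the same signal range. The SD over the 3 LOX-PP arrays was larger than that over the 3 controls in 43 of the 51 genes, with medians of 0.25 and 0.13, and the same was true of 72.7% of all genes.

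**Figure D2:**
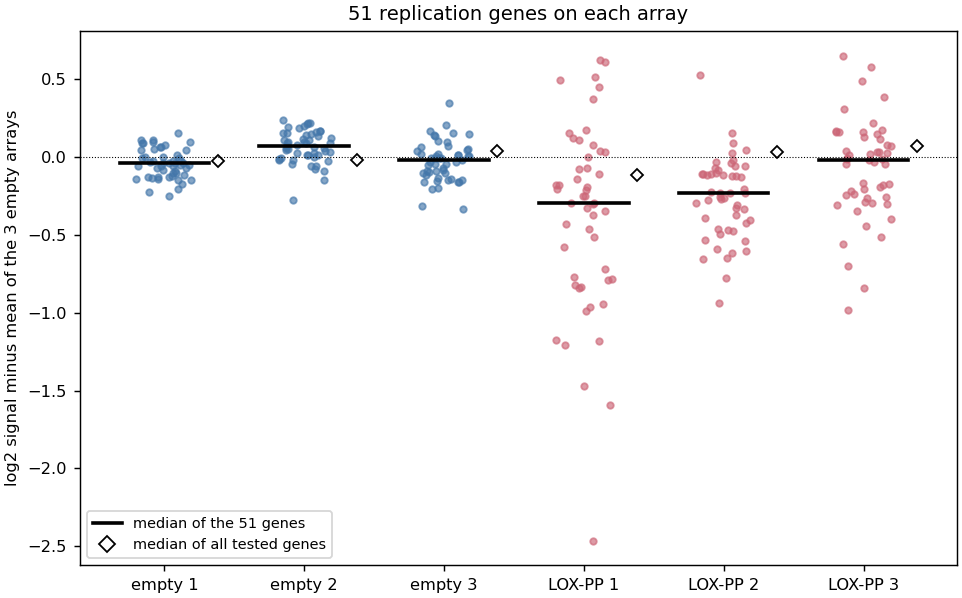
Deviation of each of the 51 genes from its mean over the 3 control arrays (log2, points), by array. Black lines are the medians of the 51 genes and diamonds those of all tested genes. Replicates 1 and 2 of LOX-PP have medians of -0.29 and -0.23, whereas that of replicate 3, at -0.02, lies among the control medians. The points of replicate 3 spread more widely than those of the controls.

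Without replicate 1 of LOX-PP, which also removes the second slide, 36 of the 51 genes (70.6%) had a difference below 0, the median was -0.16, and 44.4% of all genes were below 0 with a median of 0.07. Of the genes in the same signal range 61.5% were then below 0. Both remaining LOX-PP arrays lay below the 3 controls in 19 genes (37.3%), compared with 22.5% of all genes and 32.4% of those in the same signal range. The number of genes with an unadjusted p under 0.05 and a lower value was 5 again (9.8%, compared with 11.9% of all genes), and 1 gene, RFC3, then had an adjusted p of 0.0391 in limma.

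The 5 genes with an unadjusted p under 0.05 belong to the polymerases, the clamp loader and the lagging strand. POLE4, a small histone-fold subunit of polymerase epsilon, read 3.78, 4.07 and 3.88 on the controls and 3.09, 3.26 and 3.07 on the LOX-PP arrays. The groups were well apart, with SDs of 0.15 and 0.11. The difference of -0.77 ± 0.21 (SE) corresponds to a 1.71-fold lower signal, with an adjusted p of 0.0824 in limma. A second POLE4 probe gave -0.87 (adjusted p = 0.0692 in limma).

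RFC3, a subunit of the clamp loader RFC that opens PCNA rings, read 2.43, 2.40 and 2.41 on the controls and -0.05, 1.48 and 1.43 on the LOX-PP arrays. The controls were almost identical, and replicate 1 of LOX-PP lay far below the other two. The difference was -1.46 ± 0.43 (SE; adjusted p = 0.105 in limma), and it was -0.96 without replicate 1. A second, dimmer probe, made for another RFC3 transcript, gave -0.59 and separated the groups as well. RFC3 lies on chromosome 13, where the 284 tested genes had a median difference of -0.70 and 79.9% were below 0. Without RFC3 and the members on chromosome 8, where the median was -0.30, 39 of 48 genes were below 0 with a median of -0.20.

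POLD3, the accessory subunit through which polymerase delta binds PCNA, read 3.57, 3.91 and 3.53 on the controls and 2.84, 2.89 and 3.12 on the LOX-PP arrays, a difference of -0.72 ± 0.22 (SE; adjusted p = 0.115 in limma). All 3 LOX-PP arrays were low, replicate 3 the least. DNA2, a nuclease and helicase that trims long flaps, read 0.15, 0.29 and 0.21 against -0.75, -0.25 and -0.48, a difference of -0.71 ± 0.22 (SE; adjusted p = 0.122 in limma). PRIM1, the catalytic subunit of primase, read 4.04, 4.17 and 4.31 against 2.70, 3.52 and 3.87, a difference of -0.81 ± 0.33 (SE; adjusted p = 0.218 in limma). In PRIM1 the LOX-PP arrays ranged widely, and without replicate 1 the difference was -0.48.

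**Figure D3:**
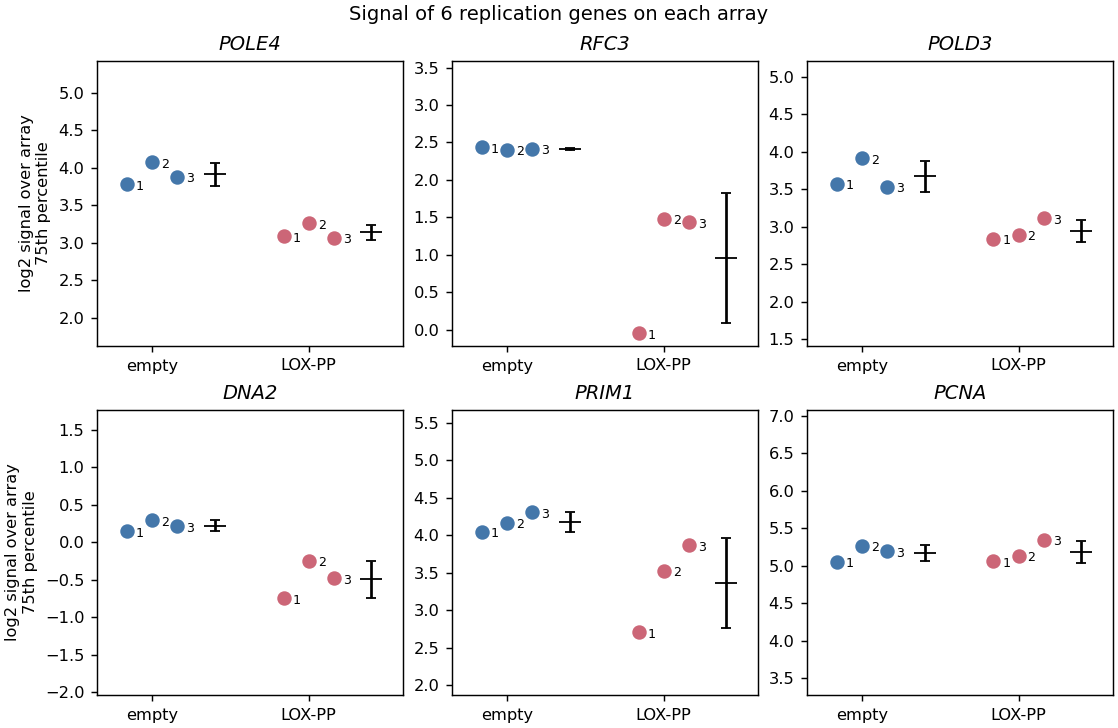
Signal of 6 replication genes on each array (log2 over the 75th percentile of the array), controls in blue and LOX-PP in red with the replicate number beside each point, and the mean ± SD (n = 3) in black. All panels span the same number of log2 units. POLE4 and POLD3 are apart with little spread, RFC3 and PRIM1 owe part of their difference to replicate 1, and PCNA overlaps.

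Promoter sequence was looked at because E2F factors bind short motifs near the start of the genes they drive. The RefSeq promoter table (assembly GRCh38.p14; from 250 bases before to 50 bases after a gene's start) held 44 of the 51 genes in 58 windows (DNA2, GINS4, MCM4, MCM5, POLD3, RPA2 and RPA3 were not in it), and the array itself was designed on another assembly. The spellings of an E2F-like motif that were searched on both strands, where opposite matches may overlap, were TTTCCCGC, TTTCGCGC, TTTGCCGC and TTTGGCGC. They were found in 21 of the 44 genes (47.7%) and in 3.99% of the 27305 genes of the table, or in 36.2% and 3.31% of windows of the same length. The 120 bases before the start are printed below, 5′ to 3′ on the strand of the gene, for genes that carry the letters and were low on the LOX-PP arrays, for PCNA, which carries them and was not low, and for PRIM1, which was low and has none of them. Capitals mark the E2F-like letters or their complement.
POLE4 (chr2:74958523-74958642, + strand): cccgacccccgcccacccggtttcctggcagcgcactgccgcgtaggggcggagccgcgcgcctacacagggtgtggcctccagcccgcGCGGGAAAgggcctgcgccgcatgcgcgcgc
RFC3 (chr13:33818029-33818148, + strand): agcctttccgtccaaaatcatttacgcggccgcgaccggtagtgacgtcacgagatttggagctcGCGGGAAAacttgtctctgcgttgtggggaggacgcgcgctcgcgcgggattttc
POLA2 (chr11:65261842-65261961, + strand): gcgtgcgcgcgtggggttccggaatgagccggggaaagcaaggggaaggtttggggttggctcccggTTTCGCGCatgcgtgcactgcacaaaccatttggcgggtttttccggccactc
MCM6 (chr2:135876444-135876563, - strand): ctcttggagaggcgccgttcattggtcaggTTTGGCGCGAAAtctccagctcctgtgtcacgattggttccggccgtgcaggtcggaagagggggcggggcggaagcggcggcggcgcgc
PCNA (chr20:5126623-5126742, - strand): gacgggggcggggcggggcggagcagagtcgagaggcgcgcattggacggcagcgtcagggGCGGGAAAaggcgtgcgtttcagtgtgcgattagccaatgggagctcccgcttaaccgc
PRIM1 (chr12:56752324-56752443, - strand): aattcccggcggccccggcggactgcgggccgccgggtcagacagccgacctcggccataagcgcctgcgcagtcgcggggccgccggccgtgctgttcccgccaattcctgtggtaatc

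POLE4 and RFC3 carry the same 8 letters as PCNA on the same strand, and the 120 bases of MCM6 hold a match on each strand that share 4 bases. The whole window of MCM6 holds 2 such overlapping pairs. PCNA has 2 windows in the table, of which 1 is shown. Having the letters did not go with a larger difference. The 21 genes with them had a median difference of -0.12, and the 23 genes without them -0.26, with 6 and 7 genes separated downwards. The inverted CCAAT box ATTGG, searched on both strands, was present in 26 of the 44 genes (59.1%) and in 39.7% of all genes, and the CHR-like letters TTTGAA were present in 2 of 44 (4.55%) and in 18.2% of all genes. A match is a description of letters and not a measured site.

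The genes of origin licensing gave small differences. In the origin recognition complex, which marks origins, 5 of 6 genes were below 0 with a median of -0.25. ORC1, its cell-cycle regulated subunit, had the only separated groups, at -0.45 with LOX-PP arrays between 1.14 and 1.78 and controls between 1.82 and 2.09, and it was -0.25 without replicate 1. ORC3 went the other way, with 3.29, 3.30 and 3.35 on the controls and 3.93, 3.34 and 3.62 on the LOX-PP arrays, a difference of 0.32 with groups that overlapped only through replicate 2. Without replicate 1 of LOX-PP the median of the complex was -0.03.

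Of the licensing factors, CDT1, which brings the helicase to the origin, read 5.21, 5.36 and 5.06 on the controls and 5.03, 4.88 and 4.99 on the LOX-PP arrays. The groups were just apart, by a difference of -0.24 (95% interval from -0.73 to 0.24). Geminin (GMNN), the inhibitor of CDT1, gave -0.24 as well with overlapping groups. CDC6, which works beside CDT1, gave 0.19 on the dimmest probe of the set.

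The 6 subunits of the MCM2-7 ring did not move as one. The differences were -0.28 for MCM2, 0.17 for MCM3, -0.30 for MCM4, -0.21 for MCM5, -0.56 for MCM6 and 0.29 for MCM7. Without replicate 1 of LOX-PP, MCM3 gave 0.03 and MCM4 gave -0.06. MCM6 alone had separated groups, with controls between 4.99 and 5.09 and LOX-PP arrays between 3.85 and 4.98, and without replicate 1 its difference was -0.25. MCM7 read 6.14, 6.35 and 6.39 on the controls and 6.79, 6.18 and 6.78 on the LOX-PP arrays, where replicates 1 and 3 were above all controls and replicate 2 was not. Its sign did not hold, since quantile normalization turned the difference to -0.33, normexp background correction with quantile normalization turned it to -0.38, and its second probe gave -0.15. None of these 6 differences had a 95% interval that excluded 0.

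Among the genes that activate the helicase, 7 of 8 were below 0 with a median of -0.08, which was -0.22 without replicate 1 of LOX-PP. CDC45, which joins the ring to form the working helicase, read 5.05, 5.24 and 5.25 on the controls and 4.23, 4.70 and 4.98 on the LOX-PP arrays. The difference of -0.54 had a 95% interval from -1.14 to 0.07, and it was -0.33 without replicate 1. GINS4 was the other gene with separated groups, at -0.29 with an SD of 0.03 over the LOX-PP arrays, whereas GINS1, GINS2 and GINS3, its partners in the same complex, lay between -0.10 and 0.04. MCM10, a factor needed for the ring to open, gave -0.39, and it was -0.55 without replicate 1. The kinase subunits gave -0.07 for CDC7 and -0.01 for DBF4, and -0.16 and -0.27 without replicate 1. A dimmer DBF4 probe gave -0.76 with separated groups (adjusted p = 0.162 in limma).

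The group medians were -0.48 for polymerase epsilon, -0.38 for polymerase alpha with primase and -0.36 for polymerase delta, the lowest of the 12 groups with all 6 arrays. Without replicate 1 of LOX-PP they were -0.32, -0.24 and -0.30, and FEN1, LIG1 and DNA2 together then had the lowest median at -0.53. With all arrays 11 of the 12 polymerase and primase genes were below 0, PRIM2 at 0.01 being the exception. In 7 of the 12 the groups were separated downwards, compared with 18.2% of all genes and 25.8% of those in the same signal range. These polymerase groups were picked for their low medians, and that choice itself favours such counts. In polymerase epsilon, which extends the leading strand, POLE2 gave -0.83 (95% interval from -1.67 to 0.01), with controls between 2.08 and 2.20 and LOX-PP arrays between 0.55 and 1.85, and -0.44 without replicate 1. POLE3, the histone-fold partner of POLE4, read 4.69, 4.77 and 4.76 against 4.56, 4.68 and 4.39, apart by a difference of only -0.20. The catalytic subunit POLE overlapped at -0.13, and its dimmer second probe gave 0.55.

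POLA2, the regulatory subunit of polymerase alpha, was separated at -0.64 (95% interval from -1.31 to 0.03) and gave -0.37 without replicate 1, while the catalytic subunit POLA1 gave -0.12 and overlapped. PRIM1 and PRIM2, the catalytic and the regulatory subunit of primase, gave -0.81 and 0.01. In polymerase delta the catalytic subunit POLD1 read 3.72, 3.96 and 3.62 on the controls and 3.52, 3.23 and 3.53 on the LOX-PP arrays. These groups were separated by a difference of -0.34 that was -0.39 without replicate 1. POLD2 had the widest spread of the 51 genes over the LOX-PP arrays (SD 0.93), which read 1.71, 2.64 and 3.57, around controls between 2.83 and 3.06, and its difference turned from -0.28 to 0.19 without replicate 1. POLD4 gave -0.38 with overlapping groups.

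The sliding clamp did not follow. PCNA read 5.05, 5.27 and 5.20 on the controls and 5.06, 5.14 and 5.35 on the LOX-PP arrays, a difference of 0.01 with a 95% interval from -0.48 to 0.50. The value lay so close to 0 that its sign turned under quantile normalization, cyclic loess and normexp. Of its other probes, one gave 0.01 and the third gave -0.30, the latter with replicate 1 of LOX-PP at 3.70 and controls between 4.63 and 4.85. In the clamp loader, RFC1, RFC2 and RFC4 lay between -0.11 and -0.01 with overlapping groups, RFC5 was separated at -0.33, and RFC3 was low as described. Subunits of one loader therefore read very differently, and the difference between them was not tested.

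RPA, which coats single-stranded DNA, was mixed. RPA1, its largest subunit, read 5.12, 5.25 and 5.05 on the controls and 4.81, 4.87 and 4.84 on the LOX-PP arrays. The groups were separated and the LOX-PP arrays agreed closely (SD 0.03), but the difference was only -0.30 (95% interval from -0.76 to 0.16). RPA2 gave -0.09, and RPA3, the smallest subunit, gave 0.35, the highest of the 51, with one control among the LOX-PP values.

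One further RPA1 probe, dimmer than the one above, was the only probe of these genes that passed the threshold. It read -0.73, -0.41 and -1.17 on the controls and -2.43, -1.83 and -2.57 on the LOX-PP arrays, a difference of -1.51 ± 0.31 (SE; adjusted p = 0.0379 in limma). Both probes carry the same transcript accession, and the brighter one gave -0.30. The call was lost when single arrays were left out, with an adjusted p in limma of 0.175 without control replicate 1, 0.168 without control replicate 2, 0.0651 without LOX-PP replicate 1 and 0.0971 without LOX-PP replicate 3. It was also lost with a common floor (0.0615), without a filter on dim probes (0.128) and by the methods' t-test (0.113).

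**Figure D4:**
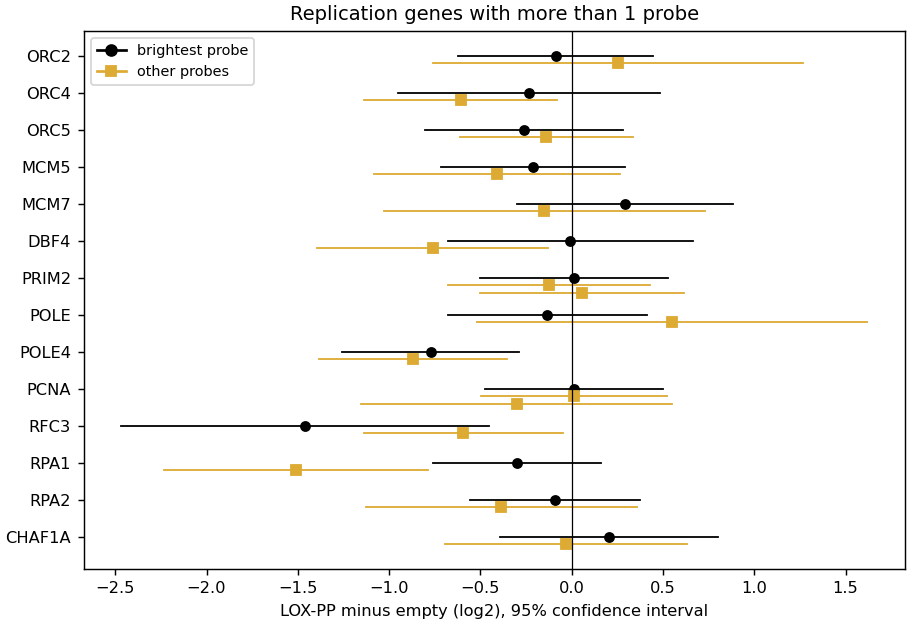
Difference between LOX-PP and control arrays (log2, with 95% confidence interval) for the 14 genes with more than 1 probe, the brightest probe in black and the others in yellow. The probes of POLE4 lie close together at -0.77 and -0.87, while those of RPA1, DBF4, POLE and RFC3 lie far apart.

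The set had 67 probes in all, and the 14 genes with several of them gave a measure of how far 1 probe can be trusted. The probes of POLE4 read almost alike, and those of ORC5 gave -0.26 and -0.14. For ORC4 the brightest probe gave -0.23 with overlap and the dimmer one -0.61 with separated groups. For ORC2, PRIM2, POLE, MCM7, CHAF1A and PCNA the probes of one gene had differences on both sides of 0.

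The remaining genes act on finished strands and on the chromatin behind the fork. FEN1, LIG1 and DNA2 were all below 0, at -0.28, -0.33 and -0.71, although FEN1 was at -0.03 without replicate 1 of LOX-PP. LIG1, which seals the nicks, read 4.25, 4.47 and 4.05 on the controls and 4.33, 3.64 and 3.81 on the LOX-PP arrays, and here replicate 1 was the highest of the LOX-PP arrays, so that the difference was -0.53 without it. CHAF1A, the large subunit of the histone chaperone CAF-1, read 5.04, 5.15 and 4.96 on the controls and 5.67, 4.99 and 5.09 on the LOX-PP arrays. Its difference of 0.20 rested on replicate 1 and was -0.01 without it, and CHAF1B gave -0.14. TIMELESS, which protects the fork together with TIPIN, read 4.94, 5.12 and 4.87 against 5.15, 4.75 and 4.95, a difference of -0.03 that turned to 0.04 without control replicate 2 and to 0.07 without LOX-PP replicate 2. TIPIN gave -0.03 as well.

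The other genes of replication were read from a list of 56 genes that holds none of the 51. Of these, 37 were below 0 and the median was -0.19, while 47.5% of all genes were below 0. Of the 55 with a value on every array, 13 (23.6%) were separated downwards and 4 upwards. Over all genes 18.2% were separated downwards and 15.5% upwards. Of those between the signal quartiles of the 51, 25.8% were separated downwards and 9.38% upwards. Only 2 of the 56 had an adjusted p under 0.05 in limma, both lower, compared with 3.37% of all genes. MTBP, a partner of the firing factor TICRR, read -0.92, -0.46 and -0.91 on the controls and -2.55, -2.07 and -2.21 on the LOX-PP arrays. The groups were far apart, and the difference of -1.52 ± 0.25 (SE) had an adjusted p of 0.0188 in limma. DSCC1, part of an alternative clamp loader that serves sister chromatid cohesion, read 1.39, 1.56 and 1.72 against -0.51, 0.17 and 0.57, a difference of -1.48 ± 0.31 (SE; adjusted p = 0.0431 in limma).

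Both genes lie on chromosome 8, whose 559 tested genes had a median difference of -0.30. Without control replicate 1 the adjusted p in limma was 0.0956 for MTBP and 0.161 for DSCC1, and without control replicate 2 it was 0.0980 and 0.173. DSCC1 lost its call without control replicate 3 (0.112) or LOX-PP replicate 2 (0.0958), and MTBP lost its call without LOX-PP replicate 3 (0.0540). Both calls were also lost without a filter on dim probes and by the methods' t-test, and that of DSCC1 with quantile normalization, a common floor and the replicate block.

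The 13 genes of the E2F and RB family, which control transcription at G1/S, had a median difference of -0.31. Of them 4 were separated downwards and 3 upwards, compared with 18.2% and 15.5% of all genes. After the values of the family were seen, the 6 with an unadjusted p under 0.05 in limma were picked out as examples. None of them passed the threshold. TFDP1, the common partner of E2F factors, gave -0.98 (adjusted p = 0.0566 in limma) and lies on chromosome 13, and E2F5, a repressor of the family, gave -1.17 (adjusted p = 0.0600 in limma) and lies on chromosome 8. E2F8, an atypical repressor, gave -1.03, and TFDP2, the other partner, gave 0.86. RBL1 and RBL2, of the RB family, each gave 0.50 with groups separated upwards. Origin firing and licensing genes outside the 51 had a median of 0.01 over 12 genes, other genes of the fork had -0.15 over 21, and genes of replication-coupled chromatin had -0.22 over 10.

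**Figure D5:**
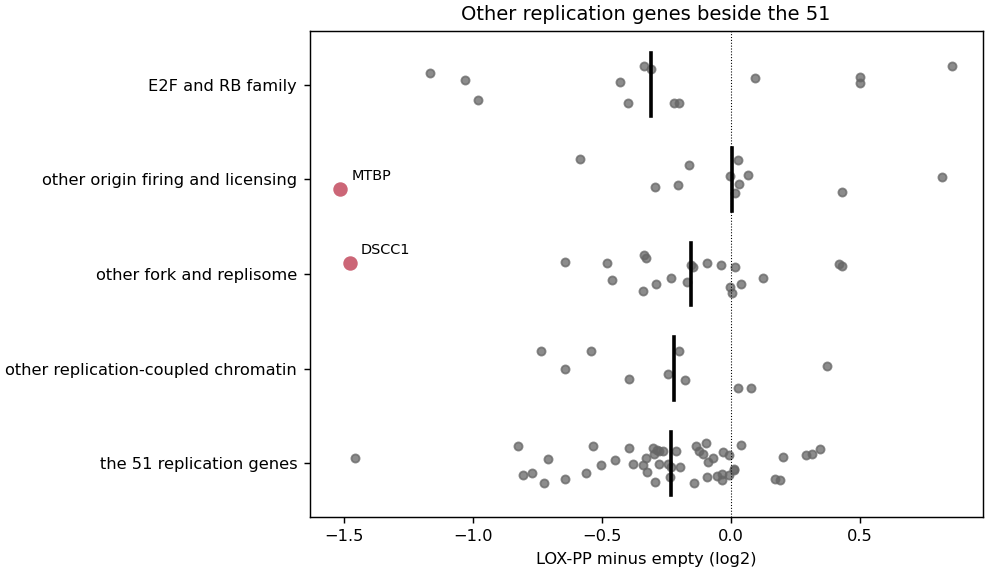
Difference between LOX-PP and control arrays (log2) for 56 other replication genes in 4 groups and for the 51 genes, 1 point a gene with the group median as a black line. Red marks MTBP and DSCC1, the only ones past the threshold; the medians run from -0.31 in the E2F and RB family to 0.01 in other origin firing and licensing genes.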

How the data were processed

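Total RNA of 3 A673/TR/empty and 3 A673/TR/LOX-PP experiments was labelled with Cy3 and read on Agilent SurePrint G3 arrays in one colour. The authors deposited spot intensity, already corrected for background by Agilent Feature Extraction (10.7 in the submitters' processing notes), and processed log2 values.

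Control spots were left out. Of the 58717 gene spots, 213 to 353 per array were left out as outliers, and no gene spot was saturated. Log2 signals of a probe's spots were averaged, and each array was scaled to its 75th percentile over probes. Centred on each probe's median, this matched the authors' log2 values within 0.0054. The 32609 of 50599 probes well above background on at least 3 arrays were fitted with limma (3.58.1, R 4.3.3), with no block and Benjamini-Hochberg adjustment (threshold 0.05). RefSeq named 28174 probes. The number of arrays limits the precision.

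The genes, lists and motifs were chosen with earlier results of these data known. Any gene of the set could be named. Array values were printed for those with an unadjusted p under 0.05 in limma and for the brightest of each functional group. They were also printed for those with another probe past the threshold. Of other replication genes, those past it were named. The E2F and RB genes with an unadjusted p under 0.05 in limma were named as examples. The steps were tested on simulated data. Scaling, background correction, filters, blocks, tests, probe choice and single arrays were varied. The study's gene set analysis was not repeated.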

Additional observations from a re-analysis of the deposited data

How the results depend on the processing

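The median difference of the 51 genes stayed between -0.24 and -0.16 under 13 other settings, and between -0.30 and -0.16 when 1 array was left out. The number of the 51 genes past the threshold was 0 by limma, 0 by the methods' t-test and 0 with the replicate number as a block (replicate block). Deviations of arrays with the same number correlated at 0.27, -0.39 and 0.23, which cannot decide whether the numbers paired the samples. Deviations within a group of 3 arrays sum to 0, and LOX-PP replicate 1 was on another slide. The count was 1 with a common floor (POLE4), 1 with the slide as a block, which equals leaving out LOX-PP replicate 1 (RFC3), 3 with an intensity trend in limma (POLD3, POLE4 and RFC3) and 0 to 1 when 1 array was left out.

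Of the other replication genes, 2 passed in limma, and 1 with quantile normalization, 4 with normexp, 4 with a common floor, 0 without a filter on dim probes, 4 when all 6 arrays had to be above background, 1 with the replicate block (MTBP), 0 by the methods' t-test, 5 with an intensity trend and 0 to 2 without 1 array. Of all tested probes 1848 passed, compared with 516 without a filter, 893 with the replicate block, 569 by the methods' t-test, 2777 with an intensity trend and 407 to 2067 without 1 array.

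Of the 16 genes of the set with every control and LOX-PP array printed, 12 kept their sign under all 19 alternatives, leaving out each array included. Genes outside the 16 turned sign too, such as POLD2, from -0.28 to 0.19 without LOX-PP replicate 1. MCM7 was -0.33 with quantile normalization and -0.38 with normexp. PCNA was -0.096, -0.023 and -0.077 with quantile normalization, cyclic loess and normexp, -0.093 as the mean of its probes, and from -0.072 to 0.072 without 1 array. CHAF1A was -0.0058 with the slide as a block and from -0.0058 to 0.33 without 1 array, and TIMELESS went from -0.13 to 0.071. The causes were not tested. With 3 arrays a group, the unadjusted 95% interval reached 0.54 to either side in the median gene. The threshold on adjusted p was stricter, and POLE4 at -0.77 did not pass it (adjusted p = 0.0824 in limma).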
